A study of Mus musculus with 45 samples.

Results

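The genes described here encode the enzymes that build, cap and sulfate the glycans of mucins, glycoproteins and glycolipids. They were taken as all protein-coding mouse genes whose symbol starts with Galnt, Fut, B3gnt, B3galt, B4galt, B4galnt, St3gal, St6gal, St8sia, Gcnt or Chst followed by a digit or by nac. This gave 89 of the 50600 gene identifiers in the count tables, or 88 symbols, since St6galnac2 has 2 identifiers. By role they were 17 GalNAc-transferases, 6 core and branching enzymes, 23 chain-extending enzymes, 8 fucosyltransferases, 21 sialyltransferases and 14 sulfotransferases.

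RNA was sequenced from mouse distal colon. In the first cohort, IL10 knockout mice were given vehicle (10 libraries), compound 13 at 10 mg/kg (7 libraries) or compound 13 at 30 mg/kg (9 libraries), and wild-type (WT) mice were untreated (8 libraries). In a second cohort labelled D77 (day 77), IL10 knockout mice were given anti-p40, an antibody to the subunit shared by IL12 and IL23 (5 libraries), or vehicle (5 libraries). Compound 13 selectively blocks GPR4, a receptor that senses protons. Knockout mice without interleukin 10 are widely used as a model of colitis. Every treated and vehicle group therefore carries the deletion. Since the WT mice had no vehicle, what the deletion and what the vehicle did cannot be told apart in that comparison. The labels give no strain, age, sex or batch, and do not tie libraries to animals, so a p-value here measures spread between libraries that may be technical. A further library, whose title and treatment field give different doses, entered no comparison.

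Total counts per library were 22682491 to 36279774 over the 44 libraries placed in a group. Il10 had 10 counts over the 8 WT libraries and 0 in each of the 36 knockout libraries. Markers of pan-epithelial, goblet, colonocyte, smooth muscle, fibroblast and enteric neuron or glial cells were detected in every group, and no gene of these lists was at 0 throughout a group. Within groups, every pair of libraries differed by more than sampling noise (chi-square per degree of freedom of at least 7.72).

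As background, mucin-type O-glycosylation starts when a Galnt enzyme adds GalNAc to serine or threonine. Core and Gcnt branching enzymes then build on it, B3gnt, B3galt and B4galt enzymes lengthen the chains with alternating GlcNAc and galactose, and the ends are capped by fucose, sialic acid, GalNAc or sulfate. In the colon these glycans coat the secreted and membrane-bound mucins, where bacteria bind and feed on them. The same families also include enzymes of gangliosides (sialylated glycolipids) and of the sulfated proteoglycan chains of connective tissue, so not every gene below acts on mucus.

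Promoter sequences of 250 bases before the transcription start were available from RefSeq (GRCm38.p6) for 67 of the 88 symbols. They are shown for 4 genes that passed the test in both comparisons described below that share no library: B3galt5, B4galnt4 and St8sia1, higher in the knockout and lower with anti-p40, and Galnt17, which moved the opposite way. Each is written 5′ to 3′ on its own strand and ends at the base before the start. Capitals mark the match to the STAT dimer motif TTCNNNGAA, which was searched on both strands together with the HNF4 motif CAAAGTCCA, with which it shares no overlap. The windows are chr16:96235551-96235800 (plus strand) for the most upstream of 3 B3galt5 starts, chr7:141060728-141060977 (plus strand), chr6:142964453-142964702 (minus strand) and chr5:131307523-131307772 (minus strand).
B3galt5: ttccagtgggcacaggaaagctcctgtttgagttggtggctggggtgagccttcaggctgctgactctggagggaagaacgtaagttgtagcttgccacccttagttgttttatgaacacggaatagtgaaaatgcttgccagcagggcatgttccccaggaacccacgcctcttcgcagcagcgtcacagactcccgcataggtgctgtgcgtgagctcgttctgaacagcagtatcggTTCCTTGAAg
B4galnt4: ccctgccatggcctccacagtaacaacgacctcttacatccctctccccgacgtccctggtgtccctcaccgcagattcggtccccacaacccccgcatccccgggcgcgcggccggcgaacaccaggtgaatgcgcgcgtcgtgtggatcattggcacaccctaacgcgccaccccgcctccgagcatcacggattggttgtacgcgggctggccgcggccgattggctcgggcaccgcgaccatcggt
St8sia1: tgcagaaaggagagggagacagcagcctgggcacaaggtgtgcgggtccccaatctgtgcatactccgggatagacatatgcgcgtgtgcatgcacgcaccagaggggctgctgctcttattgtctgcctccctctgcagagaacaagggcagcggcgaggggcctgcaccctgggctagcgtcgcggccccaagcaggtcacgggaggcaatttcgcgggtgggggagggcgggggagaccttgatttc
Galnt17: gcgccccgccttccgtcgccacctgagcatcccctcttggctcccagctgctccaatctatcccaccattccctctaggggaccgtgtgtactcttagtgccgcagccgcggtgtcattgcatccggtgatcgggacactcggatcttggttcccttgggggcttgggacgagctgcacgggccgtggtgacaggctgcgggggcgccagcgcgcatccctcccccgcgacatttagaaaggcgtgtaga
Among these, the B3galt5 window held TTCCTTGAA, which began 10 bases before the start, and the other windows shown held neither motif. Of the windows not shown, neither of the other B3galt5 windows nor any of the 4 windows of Fut8, which also passed both tests, held a match. For Fut2, Galnt12 and St6galnac2, which passed both tests too, no promoter sequence was available. Of all 32851 promoter windows in the table, 7.02% held a STAT dimer match and 0.384% the HNF4 motif. Of the 88 windows of the glycan genes, 4.55% held the STAT dimer motif and 1.14% the HNF4 motif. A match is a stretch of letters and was not tested as a binding site.

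In WT colon, 66 of the 89 genes reached a mean of 1 TPM (a transcript level corrected for gene length and library depth) and 36 reached 10 TPM. The corresponding numbers were 63 and 34 in vehicle-treated knockout colon. One sialyltransferase dominated: St6galnac6, which adds sialic acid to GalNAc or GlcNAc residues of glycolipids, held 23.9% of the summed TPM of all 89 genes in WT. It had 556, 728 and 837 TPM (lowest, median and highest library) in vehicle-treated knockouts, against 542, 578 and 658 TPM in WT mice. Behind it in WT came B3gnt7, a GlcNAc-transferase of sulfated lactosamine chains, with 279 ± 36 TPM (mean ± SD, n = 8) and B3galt5, which makes type 1 chains, with 151 ± 24 TPM. The neighbours Galnt6 (73.2 ± 4.6 TPM), B3gnt3 (71.9 ± 7.5 TPM) and B4galnt2 (69.0 ± 30 TPM) lay closer to each other than their SDs. Among sulfotransferases only Chst4, which sulfates GlcNAc of mucins and selectin ligands, exceeded 20 TPM in WT, with 53.2 ± 10 TPM. St6galnac1, the enzyme of the sialyl-Tn antigen, was listed at 0 TPM in all 8 WT libraries, and its highest knockout value in the first cohort was 0.15 TPM.

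**Figure D1:**
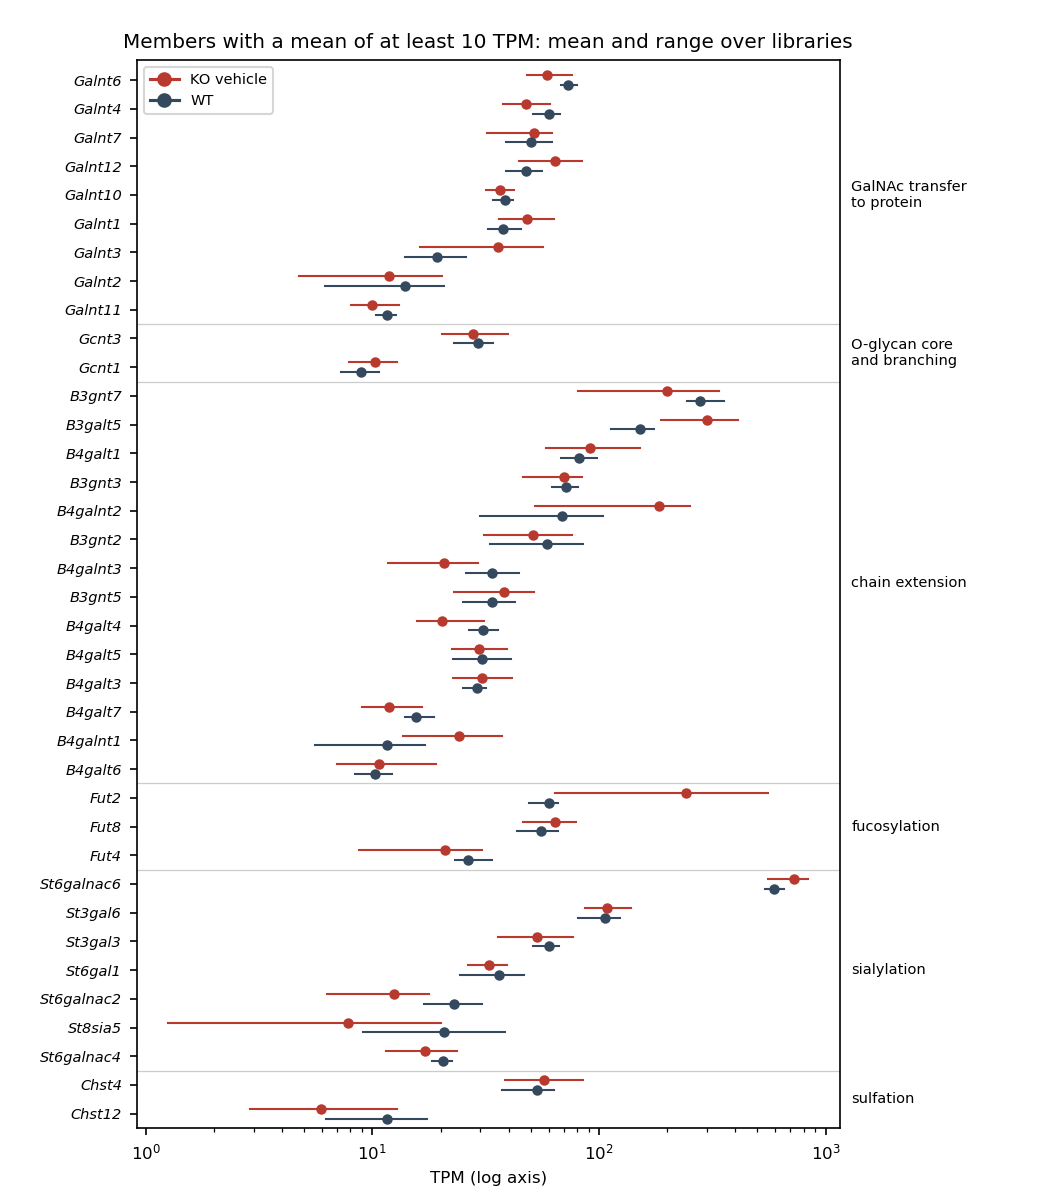
Mean TPM (points) and range over libraries (lines), on a log axis, for every gene of the 6 roles with a mean of at least 10 TPM in vehicle-treated knockout (upper, red, n = 10) or WT colon (lower, blue-grey, n = 8). St6galnac6 stood highest in both groups, and the ranges of Fut2 met only at their ends, at 63.8 TPM in the knockout and 65.8 TPM in WT.

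The first comparison set vehicle-treated knockout against WT colon. Fut2, which fucosylates chain ends of gut epithelium, B3galt5, the Sda-antigen enzyme B4galnt2 and the ganglioside enzymes B4galnt1 and St8sia1 rose by more than 2-fold. Galnt17, St3gal2 and St8sia5 fell by more than 2-fold, but the St8sia5 call was lost in 12 of 18 fits that left out 1 library. In edgeR's quasi-likelihood test with Benjamini-Hochberg adjustment over 16435 genes, 20 of the 80 glycan genes tested were higher in the knockout and 15 lower at an adjusted p under 0.05, and 42 had an unadjusted p under 0.05. Over all genes tested the same rule called 49.4%, with 25.2% higher and 24.1% lower, so the share of glycan genes called, 43.8%, was close to the background. Their median log2 fold change was 0.03, against -0.01 over all genes. Tests on log2(TPM + 1) gave 12 higher and 21 lower, on a scale where the median of all genes lay at -0.17, and limma voom gave 17 higher and 21 lower. Over all genes the calls turned the same way, with 4147 higher and 3966 lower in edgeR, 2037 higher and 5778 lower on log2(TPM + 1), and 3982 higher and 4618 lower in voom. Without WT replicate 4 the count of lower genes was 9.

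The 9 genes that did not pass the filter on low counts were B3gnt4, Chst13, Chst9, Fut7, Galnt14, Gcnt7, St6gal2, St6galnac1 and St8sia2, none of which exceeded 0.82 TPM in any library of these groups. The counting does not state strand, and 18 of the 89 genes share over 10% of their exonic bases with another annotated gene. Among those named below these are Galnt6, B3gnt7, B4galnt2, B4galnt1, B4galt2, B3gnt2, Gcnt4, St3gal4, St3gal6, Chst15 and both St6galnac2 identifiers. Their reads cannot be fully told from those of the neighbour.

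The RNA of cell type markers differed in this comparison. The summed TPM of 8 smooth muscle markers was 247, 1978 and 6399 TPM (lowest, median, highest) in vehicle-treated knockouts against 3844, 6086 and 8865 TPM in WT, and all 8 markers were lower. The 11 enteric neuron and glia markers summed to 7.04, 22.7 and 82.9 TPM in knockouts against 44.8, 75.2 and 107 TPM in WT, with 6 lower. Pan-epithelial markers (5 of 6 higher), goblet markers (6 of 9 higher) and T cell markers (6 of 7 higher) went the other way, the T cell list summing to 27.1, 40.1 and 71.7 TPM in knockouts and 7.08, 15.9 and 35.6 TPM in WT. Macrophage (7 of 8 higher), B and plasma cell (7 of 8), neutrophil (4 of 4 tested) and colonocyte markers (5 of 9 higher, 1 lower) also rose more often than they fell, endothelial markers fell (4 of 7), and of high endothelial venule (3 tested) and squamous markers (2 tested) 1 each was higher, with 1 squamous marker lower. The high endothelial venule list holds Chst4 and Fut7, which are glycan genes of this report, so it is not separate from them. In bulk tissue, fewer cells of a type and less RNA per cell cannot be told apart, and the part of the marker shifts in the results below was not tested.

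**Figure D2:**
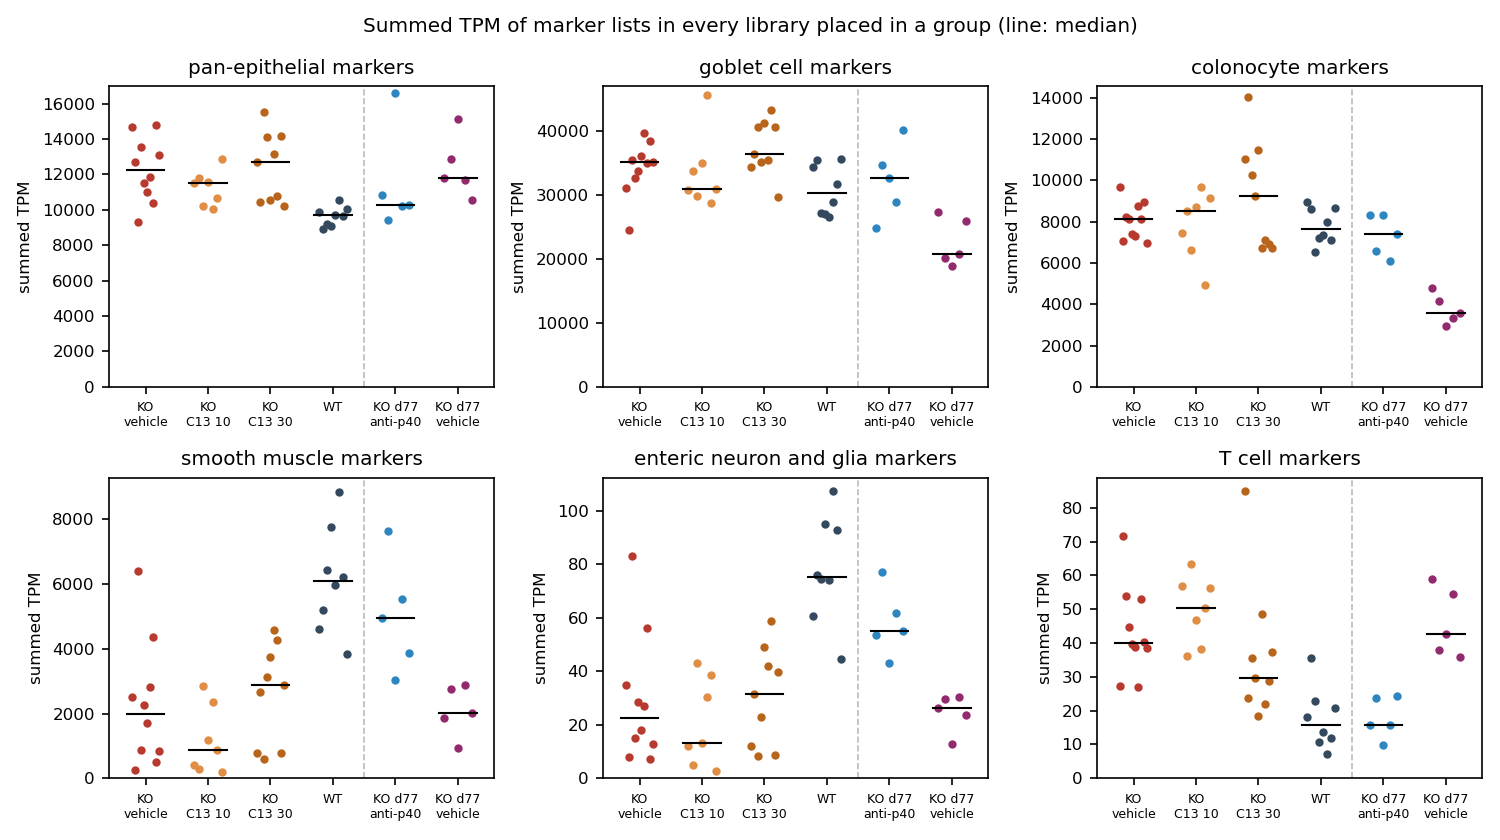
Summed TPM of 6 marker lists in every library (points) with the group median (line), for the first cohort left of the dashed line (C13 10 and C13 30 are compound 13 at 10 and 30 mg/kg) and day 77 right of it. Median smooth muscle and neuron or glia sums were lower in vehicle-treated and compound 13-treated knockouts and in day 77 vehicle than in WT and anti-p40, and day 77 vehicle also had the lowest colonocyte median (3565 TPM).

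GalNAc-transferases, which start O-glycans, split in both directions: 4 of 16 tested were higher (25%) and 2 lower (12.5%). Over all genes tested, 25.2% were higher and 24.1% lower. Galnt3 had 16.3, 35.2 and 56.5 TPM in vehicle-treated knockouts, against 13.9, 19.0 and 25.8 TPM in WT, with overlapping ranges (log2 fold change 1.14 ± 0.21 SE, adjusted p = 0.00042, edgeR). Galnt12, a colon-expressed member, was at 64.3 ± 14 TPM in knockouts and 47.7 ± 6.3 TPM in WT (log2 fold change 0.64, adjusted p = 0.0011), Galnt1 at 47.9 ± 9.1 and 37.7 ± 4.1 TPM (0.55, adjusted p = 0.0009) and Galnt5 at 7.13 ± 1.2 and 5.08 ± 1.6 TPM (0.70, adjusted p = 0.0025). The most abundant member in WT, Galnt6, was at 59.1 ± 9.2 TPM in knockouts against 73.2 ± 4.6 TPM in WT and was not called on counts (log2 fold change -0.12, adjusted p = 0.15), but fell on the log2(TPM + 1) scale by 0.32 (adjusted p = 0.0034).

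Galnt17, a GalNAc-transferase best known from brain, fell the furthest of all 80 genes. It had 0, 0.155 and 2.75 TPM in vehicle-treated knockouts, against 2.42, 3.12 and 3.89 TPM in WT. In 9 of the 10 knockout libraries it stayed at or below 0.56 TPM, and replicate 3, at 2.75 TPM, lay inside the WT range. The log2 fold change was -3.08 ± 0.63 (adjusted p = 0.00085) and -4.25 without knockout vehicle replicate 3. That library also held the highest smooth muscle sum (6399 TPM) and neuron and glia sum (82.9 TPM) of its group, whose part in the result was not tested. Galnt16 was lower as well, at 0.492 ± 0.36 TPM in knockouts and 1.19 ± 0.52 TPM in WT (log2 fold change -1.11, adjusted p = 0.023). Its call was lost without WT replicate 4 (-0.96, adjusted p = 0.055) or 6 (-0.97, adjusted p = 0.051).

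Of 5 core and branching enzymes tested, 2 were higher (40%) and none lower, where 25.2% and 24.1% of all genes were. Gcnt3, the mucin-type branching enzyme and the most abundant of them in WT, had 20.3, 28.2 and 39.8 TPM in knockouts and 23.0, 30.3 and 34.1 TPM in WT, with a log2 fold change of 0.13 ± 0.12 (adjusted p = 0.37), which was -0.08 on the log2(TPM + 1) scale. Those that passed, which are given although the naming rule left them out, were Gcnt1, a core 2 branching enzyme, at 10.3 ± 1.6 TPM in knockouts against 8.92 ± 1.2 TPM in WT (0.42, adjusted p = 0.0034), and Gcnt4 at 0.697 ± 0.37 against 0.324 ± 0.094 TPM (1.33, adjusted p = 0.0029). Named after its values were seen, the core 3 enzyme B3gnt6 was low in both groups, at 0.527 ± 0.35 TPM in knockouts and 0.421 ± 0.19 TPM in WT.

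Chain-extending enzymes were near the background, with 6 of 22 tested higher (27.3%) and 4 lower (18.2%), where 25.2% and 24.1% of all genes were. B3galt5 had 188, 288 and 413 TPM in vehicle-treated knockouts, against 113, 159 and 175 TPM in WT. All 10 knockout libraries were above all 8 WT libraries. It was the only glycan gene of the 80 tested (1.25%) whose TPM did not overlap and were higher in the knockout, where 1.95% of all genes tested behaved so, and none was separated on the lower side, where 3.41% of all genes were. Its log2 fold change was 1.20 ± 0.16 (adjusted p = 2.2e-05), the lowest adjusted p among the glycan genes.

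B4galnt2, which adds the terminal GalNAc of the Sda antigen in mouse gut, had 52.0, 192 and 252 TPM in knockouts and 29.8, 70.0 and 104 TPM in WT (log2 fold change 1.65 ± 0.30, adjusted p = 0.00034). Except for the lowest knockout library, replicate 3, every knockout value exceeded the WT maximum. B4galnt1, which makes the gangliosides GM2 and GD2, had 13.6, 24.4 and 37.3 TPM in knockouts and 5.59, 11.7 and 17 TPM in WT, with overlap at the low end (1.28 ± 0.22, adjusted p = 0.00022). B4galnt4, which makes the LacdiNAc unit, had 1.20, 2.25 and 4.36 TPM in knockouts and 0.62, 0.825 and 1.98 TPM in WT (1.21 ± 0.23, adjusted p = 0.00043). The other LacdiNAc enzyme, B4galnt3, went the other way, at 20.7 ± 6.3 TPM in knockouts against 33.8 ± 6.6 TPM in WT (-0.52, adjusted p = 0.0072). The 4 B4galnt genes were listed with the chain-extending enzymes, although B4galnt2 adds a terminal GalNAc. They held 3 of the higher and 1 of the lower calls of this role.

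Among galactosyltransferases that act on GlcNAc, B4galt2 was at 2.13 ± 1.7 TPM in knockouts and 4.61 ± 1.1 TPM in WT (-0.96, adjusted p = 0.022), and B4galt4 at 20.2 ± 5.1 and 30.7 ± 3.7 TPM (-0.38, adjusted p = 0.0037). B4galt5, a lactosylceramide synthase added here after its values were seen, was called higher on counts (0.30, adjusted p = 0.0075) although its mean TPM was 29.6 ± 5.2 in knockouts and 30.5 ± 6.8 in WT. The remaining 2 calls of this role were B3gnt5, higher, and B4galt7, lower. B3gnt7 had 80.8, 186 and 340 TPM in knockouts and 244, 278 and 358 TPM in WT. In 7 of 10 knockout libraries it lay below the WT range, but the count test did not call it (-0.31 ± 0.18, adjusted p = 0.16), whereas the test on log2(TPM + 1) did (-0.59, adjusted p = 0.024), as did the count test without knockout vehicle replicate 1 (-0.42, adjusted p = 0.044).

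Of 7 fucosyltransferases tested, 2 were higher (28.6%) and 1 lower (14.3%), where 25.2% and 24.1% of all genes were. Fut2, the secretor enzyme, had the largest rise of all glycan genes. It ran at 63.8, 199 and 559 TPM in vehicle-treated knockouts, against 49.3, 62.8 and 65.8 TPM in WT. All but 1 knockout library exceeded every WT library, and the knockout libraries spread about 9-fold among themselves (lowest 63.8, highest 559 TPM). The log2 fold change was 2.20 ± 0.33 (adjusted p = 6.7e-05). Fut8, which adds core fucose to N-glycans, differed less, at 63.8 ± 10 TPM in knockouts and 55.6 ± 7.4 TPM in WT (0.48, adjusted p = 0.0051), and was not called on log2(TPM + 1) (0.19, adjusted p = 0.11). Fut11 was lower, at 4.41 ± 0.86 TPM in knockouts and 6.92 ± 0.58 TPM in WT (-0.47, adjusted p = 0.00035). The Lewis-type enzymes Fut4 (-0.15, adjusted p = 0.42) and Fut9 (-0.47, adjusted p = 0.078), named after their values were seen, did not pass.

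**Figure D3:**
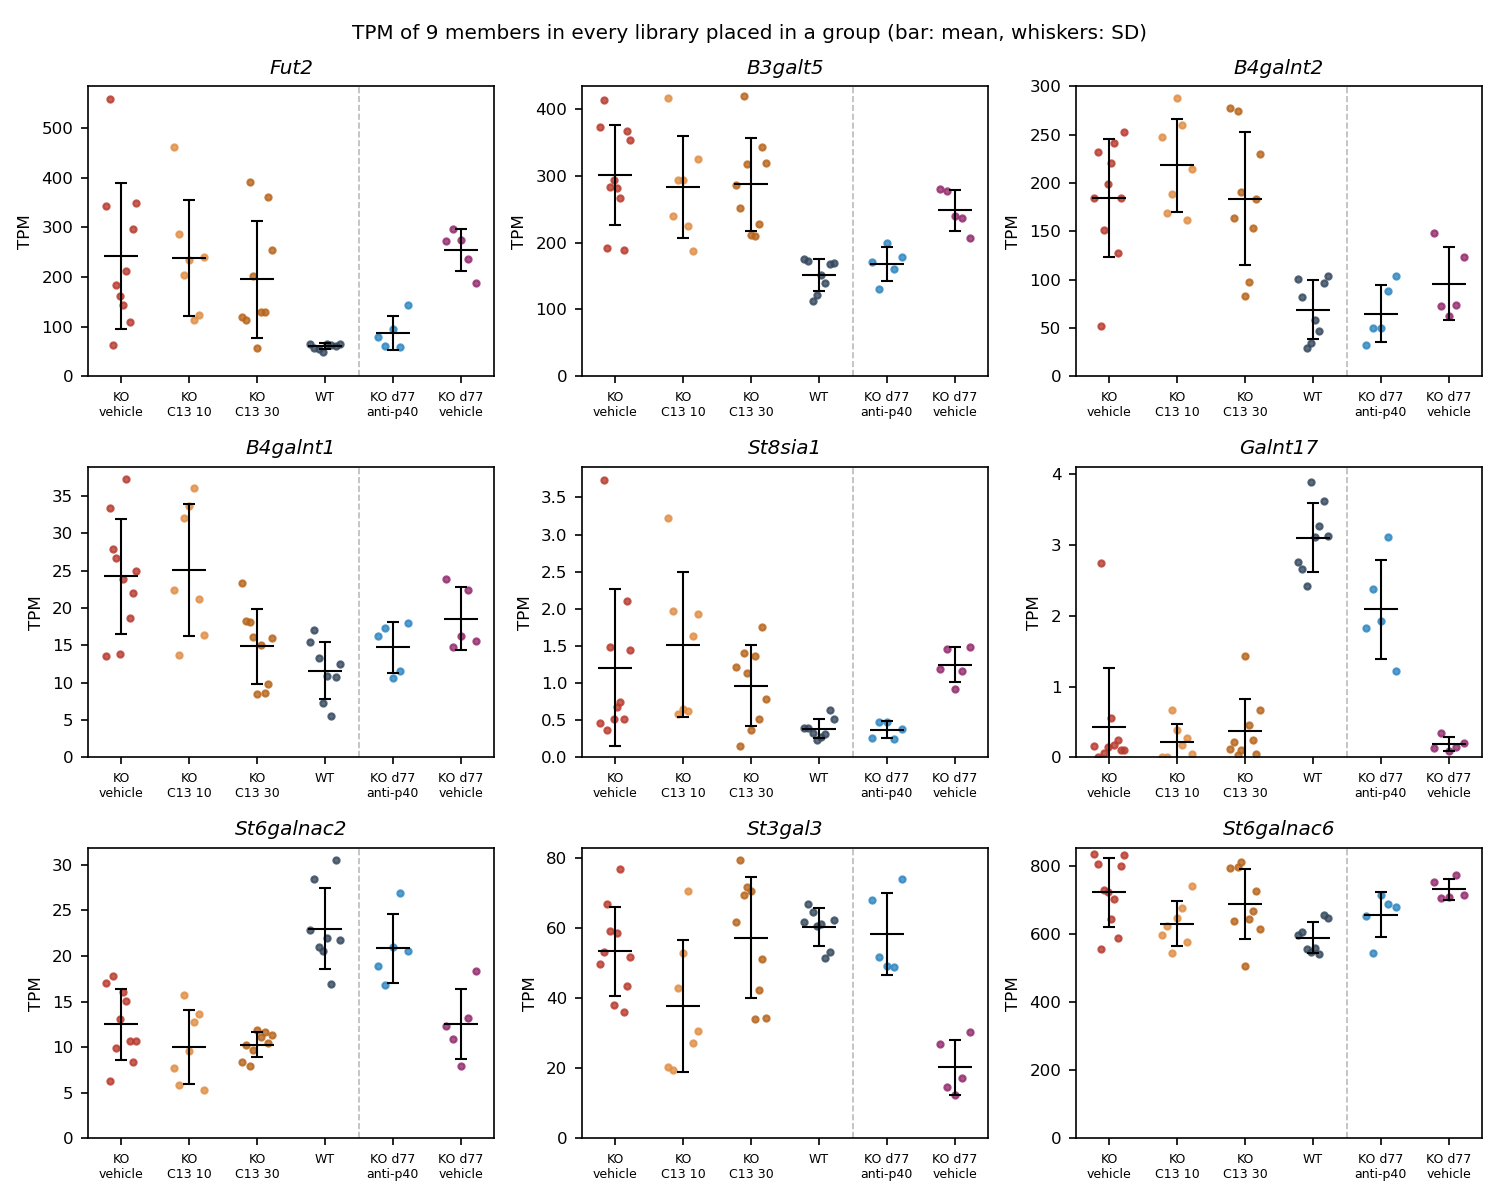
TPM of 9 genes in every library (points), with the mean (bar) and SD (whiskers) of each group; the first cohort stands left of the dashed line and day 77 right of it (C13 10 and C13 30 are compound 13 at 10 and 30 mg/kg). Fut2 and B3galt5 were high in the first-cohort knockout groups and in day 77 vehicle and low in WT and anti-p40, Galnt17 was the reverse, and St3gal3 was low in day 77 vehicle (12.2 to 30.3 TPM).

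Sialyltransferases had 6 higher and 5 lower calls of 18 tested (33.3% and 27.8%), where 25.2% and 24.1% of all genes were called. The lower calls include both identifiers of St6galnac2. The ganglioside enzymes went both ways. St8sia1, the GD3 synthase, had 0.37, 0.71 and 3.73 TPM in knockouts and 0.23, 0.365 and 0.64 TPM in WT (log2 fold change 1.74 ± 0.43, adjusted p = 0.0032). St3gal5, the GM3 synthase that supplies it, was at 1.14 ± 0.48 TPM in knockouts and 2.34 ± 0.88 TPM in WT (-0.85, adjusted p = 0.012). St3gal2, which sialylates gangliosides and core 1 chains, had 1.62, 2.15 and 6.5 TPM in knockouts and 3.94, 6.80 and 8.94 TPM in WT (-1.03, adjusted p = 0.0019). St8sia5, a ganglioside sialyltransferase, had 1.26, 5.03 and 20.1 TPM in knockouts and 9.07, 18.8 and 38.6 TPM in WT (-1.22, adjusted p = 0.040). That call was lost in 12 of 18 fits that left out 1 library, with adjusted p up to 0.093, and was kept without WT replicate 1, 2 or 7 or knockout vehicle replicate 5, 8 or 9. St6galnac6 was modestly higher (0.45 ± 0.08, adjusted p = 0.00028).

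Of the sialyltransferases of O-glycans, St3gal1, which caps core 1, had 2.27, 7.34 and 27.4 TPM in knockouts and 2.47, 3.79 and 6.21 TPM in WT (1.44 ± 0.42, adjusted p = 0.0092). The knockout range enclosed the WT range, and limma voom did not call it (1.06, adjusted p = 0.060). St6galnac2, which sialylates the GalNAc of core 1, had 6.29, 11.9 and 17.8 TPM in knockouts and 16.9, 21.8 and 30.6 TPM in WT, so that the ranges met only at their ends (-0.60, adjusted p = 0.0017). Its second identifier, at 1.37 ± 0.66 TPM in knockouts and 2.37 ± 0.38 TPM in WT, gave a similar value (-0.62, adjusted p = 0.038), which was lost in 11 of 18 fits that left out 1 library, with adjusted p up to 0.072. It was kept without WT replicate 4, 5 or 6 or knockout vehicle replicate 3, 5, 6 or 7. The polysialyltransferase St8sia4 was at 2.67 ± 0.94 TPM in knockouts and 1.35 ± 0.53 TPM in WT (1.20, adjusted p = 0.00079). St3gal4 was at 4.52 ± 2.4 TPM in knockouts and 2.56 ± 0.57 TPM in WT (0.73, adjusted p = 0.033), and lost its call in 5 of 18 such fits, those without knockout vehicle replicate 2 or 7 or WT replicate 1, 7 or 8, with 0.49 as the lowest log2 fold change. St6gal1, the sialyltransferase of N-glycans, was at 32.7 ± 4.2 TPM in knockouts and 36.1 ± 7.6 TPM in WT (0.07, adjusted p = 0.65).

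Of sulfotransferases, edgeR called none higher and 3 of 12 tested lower (25%), where 25.2% of all genes were higher and 24.1% lower. All 3 act on chondroitin or dermatan sulfate chains, as do Chst3 and Chst11, which were not called. In the authors' deposited Wald tests, Chst13 (4.97, adjusted p = 4.3e-05), Chst3 (0.95, adjusted p = 0.033), Chst2 (0.40, adjusted p = 0.031) and Chst4 (0.33, adjusted p = 0.046) were higher. Chst12, Chst14 and Chst15 were lower there too, and Chst13 was below the filter used here. Chst12 had 2.89, 5.36 and 12.8 TPM in knockouts and 6.23, 11.3 and 17.5 TPM in WT (-0.75 ± 0.26, adjusted p = 0.024). Chst14 was at 2.08 ± 0.78 TPM in knockouts and 3.44 ± 0.53 TPM in WT (-0.55, adjusted p = 0.023), and Chst15 at 5.37 ± 1.9 and 7.85 ± 0.75 TPM (-0.38, adjusted p = 0.030). All 3 calls were lost without WT replicate 4 (Chst12 -0.66, adjusted p = 0.054; Chst14 -0.49, adjusted p = 0.052; Chst15 -0.37, adjusted p = 0.052), and that of Chst15 also without WT replicate 6 or 7 (both -0.36, adjusted p up to 0.056). Fibroblast markers, beside them, summed to 206, 261 and 612 TPM in knockouts and 424, 605 and 781 TPM in WT, with 6 of 7 lower, and their part was not tested. The mucin sulfotransferase Chst4 had 38.6, 54.3 and 85.0 TPM in knockouts and 37.5, 57.1 and 63.3 TPM in WT (0.25 ± 0.13, adjusted p = 0.10), and was called higher in 1 of 18 fits, that without knockout vehicle replicate 8 (0.30, adjusted p = 0.046).

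**Figure D4:**
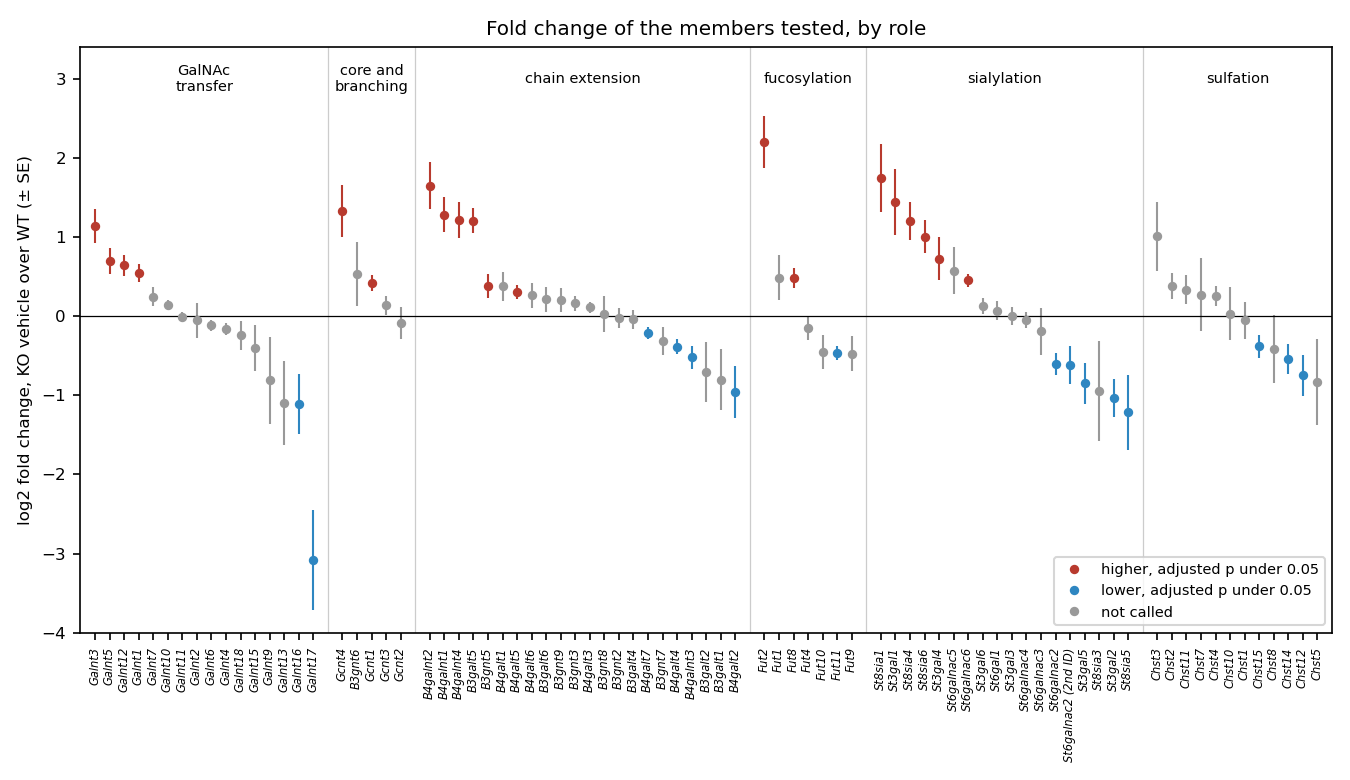
Log2 fold change of vehicle-treated knockout over WT (points, edgeR) with its SE (lines) for the 80 genes tested, grouped by role and ordered within it. Higher calls (red) occurred in every role but sulfation, lower calls (blue) in every role but core and branching, and Fut2 (2.20) and Galnt17 (-3.08) stood at the ends.

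The other genes of the pathway gave a mixed picture. These lists were chosen with earlier results of these data known. Of 19 tested enzymes for core 1 and other glycans, 6 were higher in the knockout and 7 lower. Over all genes tested, 25.2% were higher and 24.1% lower. The core 1 enzyme C1galt1 was at 57.9 ± 13 TPM in knockouts and 42.9 ± 6.5 TPM in WT (0.64, adjusted p = 0.0014) and its chaperone C1galt1c1 at 51.9 ± 7.0 and 40.7 ± 5.1 TPM (0.55, adjusted p = 0.00031). Abo, the histo-blood group transferase that acts on the product of Fut2, was also higher (0.89, adjusted p = 0.0016). The lower ones with the largest changes were Gal3st4, a galactose sulfotransferase (-0.93, adjusted p = 0.0038), the globoside enzyme B3galnt1 (-0.83, adjusted p = 0.030; lost without WT replicate 4, 6 or 7 or knockout vehicle replicate 4, 9 or 10, with adjusted p up to 0.062) and the N-glycan branching enzyme Mgat4a (-0.64, adjusted p = 9.9e-05).

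Of 29 tested genes that make or carry the sugar and sulfate donors, 16 were higher and 2 lower, where 25.2% and 24.1% of all genes were. Their median log2 fold change was 0.28 against -0.01 over all genes. Gmds, the entry enzyme to GDP-fucose, was at 222 ± 57 TPM in knockouts and 123 ± 11 TPM in WT (1.06, adjusted p = 5.9e-05), and Gfpt1, which feeds the hexosamine route, at 213 ± 38 and 165 ± 29 TPM (0.57, adjusted p = 0.0011). The 2 lower genes were Papss1, which makes the sulfate donor (-0.33, adjusted p = 0.0059), and Galt, of galactose breakdown (-0.27, adjusted p = 0.017). Of 12 mucins and mucus proteins tested, 8 were higher and none lower, beside the same shares of all genes. Among the higher ones were the membrane mucins Muc4 (2.69 ± 0.46, adjusted p = 0.00019), Muc20 (2.07 ± 0.39, adjusted p = 0.00043) and Muc13 (1.01 ± 0.16, adjusted p = 0.0001).

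The compound 13 comparisons asked whether the GPR4 antagonist moved these genes in the knockout. In the first-cohort knockouts, none of 79 glycan genes was called at either dose against the shared vehicle libraries, in edgeR, DESeq2, limma voom or any other alternative. At 10 mg/kg, 5 of them had an unadjusted p under 0.05, and 2 of 16948 genes (0.0118%) were called over all genes, where DESeq2 called 81. At 30 mg/kg, 7 of them had an unadjusted p under 0.05, and 0% of all genes were called, where DESeq2 called 1. Log2 fold changes lay within 0.5 of zero for 68 of 79 genes at 10 mg/kg and 71 of 79 at 30 mg/kg, with median SEs of 0.24 and 0.22.

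Fut2 stayed widely spread in every group, at 63.8, 199 and 559 TPM with vehicle, 114, 233 and 460 TPM at 10 mg/kg and 56.2, 129 and 392 TPM at 30 mg/kg. Its log2 fold change was 0.10 ± 0.39 at 10 mg/kg and -0.23 ± 0.37 at 30 mg/kg, so that changes of 1.5-fold in either direction lay within about 2 SEs. B3galt5 was measured more tightly, at 0.04 ± 0.19 and 0.02 ± 0.18. B4galnt2 gave 0.33 ± 0.26 at 10 mg/kg and 0.07 ± 0.24 at 30 mg/kg. The lowest p-values at 10 mg/kg belonged to St6gal1, at 23.9 ± 4.2 TPM against 32.7 ± 4.2 TPM with vehicle (-0.30 ± 0.09, adjusted p = 0.25), and Galnt10, at 29.1 ± 4.5 against 36.7 ± 3.0 TPM (-0.25 ± 0.08, adjusted p = 0.30). At 30 mg/kg they belonged to B4galnt1, at 8.51, 16 and 23.3 TPM against 13.6, 24.4 and 37.3 TPM with vehicle (-0.60 ± 0.21, adjusted p = 0.84), and to the chondroitin sulfotransferase Chst11, at 1 ± 0.3 against 1.53 ± 0.44 TPM (-0.51 ± 0.18, adjusted p = 0.84). The TPM of treated and vehicle libraries overlapped for all 79 genes at both doses, where 0.0118% and 0.0472% of all genes lay wholly above and below vehicle at 10 mg/kg and 0% and 0.0059% at 30 mg/kg.

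The day 77 comparison asked how the antibody to p40 changed the knockout colon. Fut2, St8sia1, B4galnt4, B3galt5 and Fut8 fell with anti-p40, and Galnt17, St3gal3 and B3gnt2 rose. Of 79 glycan genes tested, 7 were higher and 7 lower with anti-p40, and 31 had an unadjusted p under 0.05. The share called, 17.7%, was close to the 16.7% of all 16470 genes tested (8.35% higher, 8.32% lower). DESeq2 called 11 lower, tests on log2(TPM + 1) called 4 lower, and 4 rather than 7 were called higher without day 77 vehicle replicate 1, 2 or 3 or anti-p40 replicate 1 or 2. The TPM of 6 glycan genes (7.59%) lay wholly above and of 5 (6.33%) wholly below the vehicle libraries, where 8.31% and 4.19% of all genes tested did so. Smooth muscle markers summed to 3047 to 7632 TPM with anti-p40 and 950 to 2878 TPM with vehicle (7 of 8 higher). The sums for colonocyte markers were 6112 to 8337 TPM and 2940 to 4766 TPM (3 of 9 higher, 1 lower), and for T cell markers 9.90 to 24.4 TPM and 35.8 to 58.8 TPM (6 of 7 lower). Macrophage (6 of 8), B and plasma cell (3 of 8) and neutrophil markers (3 of 4) were lower, 4 of 11 neuron and glia markers and 1 each of the goblet, endothelial and squamous markers were higher, and no pan-epithelial, fibroblast or high endothelial venule marker was called. The part of these shifts in the results was not tested.

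Fut2 had 79.6, 61.8, 94.6, 59.9 and 144 TPM in the anti-p40 libraries, against 272, 297, 274, 236 and 188 TPM in the vehicle libraries. Every anti-p40 library was below every vehicle library (log2 fold change -1.57 ± 0.24, adjusted p = 0.0024). Fut8 followed, with 47.8, 46.4, 47.6, 51.0 and 52.8 TPM with anti-p40 against 72.5, 60.8, 54.5, 61.8 and 68.9 TPM with vehicle (-0.49 ± 0.09, adjusted p = 0.0048). The anti-p40 libraries were tightly grouped and again did not overlap with vehicle.

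B3galt5 had 172, 131, 200, 160 and 179 TPM with anti-p40, against 281, 277, 239, 237 and 206 TPM with vehicle, without overlap (-0.65 ± 0.13, adjusted p = 0.0086). B4galnt4 had 2.28, 1.13, 1.32, 1.28 and 1.59 TPM with anti-p40 against 5.66, 4.58, 2.47, 3.28 and 2.78 TPM with vehicle, also without overlap (-1.27 ± 0.22, adjusted p = 0.0043). B4galt1, a main galactosyltransferase of lactosamine chains, was at 74.2 ± 13 TPM with anti-p40 and 109 ± 26 TPM with vehicle (-0.67, adjusted p = 0.028), but the groups overlapped. Its call was lost without anti-p40 replicate 2 or 5 or vehicle replicate 2 or 4, with adjusted p up to 0.072. B3gnt2, the polylactosamine enzyme, had 52.2, 52.3, 66.1, 65.6 and 45.7 TPM with anti-p40, against 43.1, 45.4, 23.2, 38.4 and 30.8 TPM with vehicle (0.55 ± 0.11, adjusted p = 0.01), the lowest anti-p40 library lying just above the highest vehicle library. It shares 66% of its exonic bases with other annotated genes, 58.6% with the protein-coding gene Gm28048 on the same strand. Its reads cannot be fully told from theirs. B4galnt2, high in the first-cohort knockouts, was at 64.9 ± 30 TPM with anti-p40 and 96.0 ± 37 TPM with vehicle and did not pass (-0.64 ± 0.33, adjusted p = 0.20).

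Galnt17 had 1.83, 2.38, 1.93, 3.11 and 1.22 TPM with anti-p40, against 0.13, 0.35, 0.09, 0.15 and 0.20 TPM with vehicle. Every anti-p40 library was far above every vehicle library (3.37 ± 0.31, adjusted p = 0.00022). Galnt12 was slightly lower (-0.39, adjusted p = 0.045), a call lost in 8 of 10 fits that left out 1 library (all but those without vehicle replicate 2 or 3), with adjusted p up to 0.098. Galnt6 was at 65.9 ± 8.5 TPM with anti-p40 and 51.1 ± 7.4 TPM with vehicle and just missed the threshold (0.28, adjusted p = 0.052), with no overlap in TPM.

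Among sialyltransferases, 4 of 18 tested were higher (22.2%) and 1 lower (5.56%), where 8.35% and 8.32% of all genes were. St3gal3, which caps lactosamine chains with sialic acid, had 67.9, 51.6, 49.2, 48.8 and 74.0 TPM with anti-p40, against 26.9, 14.8, 12.2, 17.2 and 30.3 TPM with vehicle. The groups were well apart (1.39 ± 0.23, adjusted p = 0.0038). In the first cohort, St3gal3 had medians of 52.4 TPM with first-cohort vehicle, 30.6 TPM at 10 mg/kg, 61.7 TPM at 30 mg/kg and 61.5 TPM in WT, and 3 of 7 libraries at 10 mg/kg (19.6, 20.3 and 27.1 TPM) lay inside the day 77 vehicle range. St3gal6, of related activity, was at 157 ± 26 TPM with anti-p40 and 111 ± 16 TPM with vehicle (0.48, adjusted p = 0.032), a call lost in 7 of 10 fits that left out 1 library (adjusted p up to 0.077; kept without vehicle replicate 5 or anti-p40 replicate 3 or 4). St6galnac2 was at 20.8 ± 3.8 TPM with anti-p40 and 12.5 ± 3.8 TPM with vehicle (0.53, adjusted p = 0.042), a call lost in 9 of 10 such fits (adjusted p up to 0.094; kept without vehicle replicate 5). St8sia1 had 0.26, 0.48, 0.48, 0.25 and 0.38 TPM with anti-p40, against 1.19, 1.46, 0.92, 1.16 and 1.49 TPM with vehicle, without overlap (-1.31 ± 0.19, adjusted p = 0.0018). Chst5, an intestinal GlcNAc sulfotransferase, and St8sia3 were called higher at means under 1 TPM and are named for completeness after their values were seen. Chst5 had 0.54, 0.68, 0.28, 0.39 and 1.18 TPM with anti-p40 against 0.13, 0, 0, 0.08 and 0.12 TPM with vehicle (adjusted p = 0.012).

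In the wider pathway, Gmds (-0.69, adjusted p = 0.011), C1galt1 (-0.63, adjusted p = 0.021), C1galt1c1 (-0.50, adjusted p = 0.012) and Muc13 (-0.96, adjusted p = 0.0011) were lower with anti-p40, and Mgat4a was higher (0.55, adjusted p = 0.0091). Each moved opposite to its knockout change. The other genes named above from these lists are not given here, so those named do not stand for the lists. Over all genes tested, 8.35% were higher and 8.32% lower with anti-p40. Over the lists, 2 of 19 core 1 and other glycan enzymes were higher and 4 lower. The donor list had 1 higher and 5 lower of 29 tested, with a median of -0.17 against 0.01 over all genes. The mucin list had 3 higher and 2 lower of 12.

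The knockout-against-WT and anti-p40 comparisons share no library and can be set side by side. Of the 20 glycan genes higher in the knockout, 6 were called lower with anti-p40 (B3galt5, B4galnt4, Fut2, Fut8, Galnt12 and St8sia1) and none was called higher. The 6 make up 30% of the 20, and among all genes higher in the knockout 29.2% were called lower with anti-p40. A negative log2 fold change was found for 16 of the 20 (80%), against 89.7% of all genes higher in the knockout. Of the 15 glycan genes lower in the knockout, 2 (Galnt17 and St6galnac2) were called higher with anti-p40. This share, 13.3%, stood against 24.5% over all genes lower in the knockout. A positive log2 fold change was found for 12 of the 15 (80%), against 90.1% of all genes lower in the knockout. St3gal1 (log2 fold change -0.03 ± 0.25) and Galnt5 (0.13 ± 0.21), both higher in the knockout, did not pass with anti-p40. St8sia5, lower in the knockout, was at 6.57 ± 3.9 TPM with anti-p40 against 14.8 ± 8.1 TPM with vehicle (-1.25, adjusted p = 0.076).

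**Figure D5:**
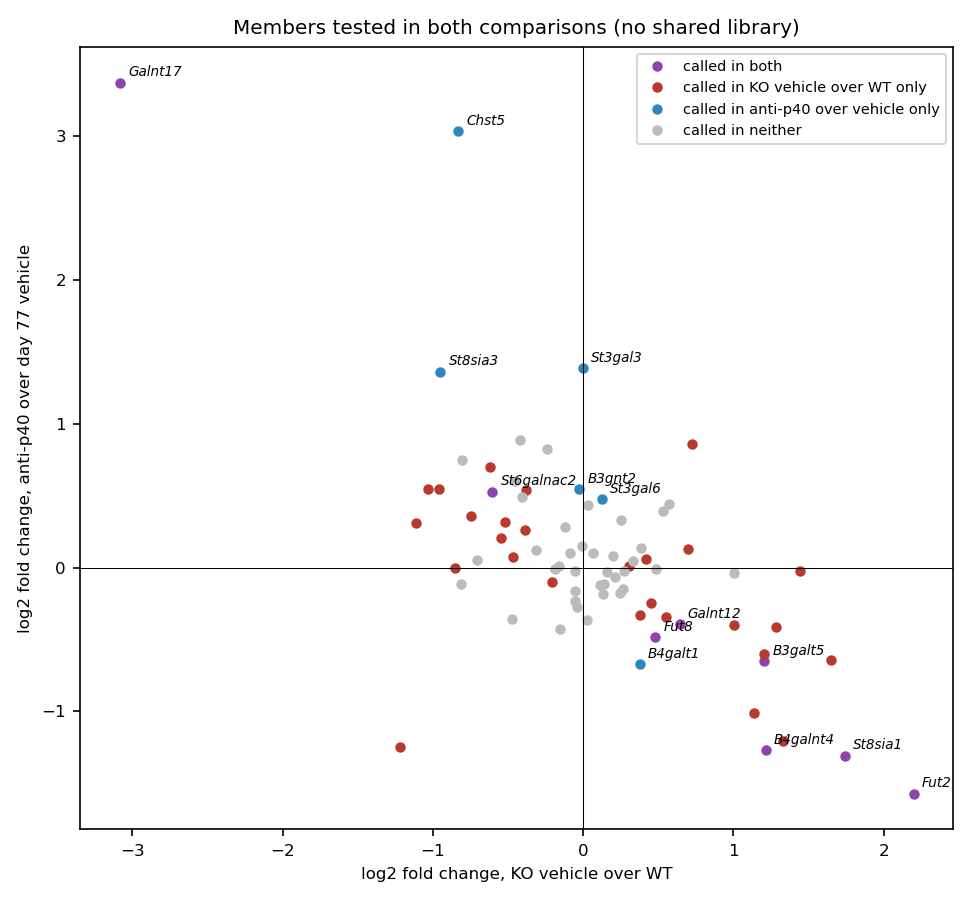
Log2 fold change of anti-p40 over day 77 vehicle (vertical) against that of vehicle-treated knockout over WT (horizontal) for the glycan genes tested in both (points, coloured by which test called them, named where the anti-p40 test did). The 6 genes called higher and then lower lie at the lower right, Galnt17 lies farthest to the upper left, and St3gal3 lies near zero on the horizontal axis.

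A fit of all 6 groups set the change with anti-p40 against the change with 30 mg/kg of compound 13, each relative to vehicle of the same cohort. The treatments belonged to different cohorts, so treatment and cohort cannot be told apart in this difference. Of 83 glycan genes tested, St3gal3 was the only one whose effects differed at an adjusted p under 0.05 (difference in log2 fold change 1.16 ± 0.32, adjusted p = 0.048), 17 had an unadjusted p under 0.05, and 1.65% of all 18021 genes tested were called. The call was lost without the filter on low counts (adjusted p = 0.096, edgeR) and in 21 of 29 fits that left out 1 library, over which the difference was 1.04 to 1.37. It was kept without first-cohort vehicle replicate 2, 5, 8 or 9, 30 mg/kg replicate 2 or 5, day 77 vehicle replicate 5 or anti-p40 replicate 4. For Fut2 the difference was -1.35 ± 0.52 (adjusted p = 0.18), for B3galt5 -0.67 ± 0.26 (adjusted p = 0.17) and for Galnt17 3.08 ± 1.13 (adjusted p = 0.15), so the compound and the antibody were not shown to differ for these genes.

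In the authors' deposited table for vehicle-treated knockouts against WT, 26 of the 83 glycan genes with an adjusted p were higher and 15 lower at an adjusted p under 0.05, and over all 17792 genes with one 4694 were higher and 4324 lower. For anti-p40 the authors' deposited table has 10 of 82 glycan genes higher and 11 lower, beside 1938 higher and 1991 lower of all 17930 genes. For compound 13 the authors' deposited tables have none of 65 glycan genes at 10 mg/kg and none of 82 at 30 mg/kg, beside 36 higher and 46 lower of 13576 genes at 10 mg/kg and 0 higher and 1 lower of 17665 genes at 30 mg/kg.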

How the data were processed

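Poly(A)-enriched libraries of distal colon RNA were sequenced. Build mm10 and the tools RSEM 1.3.3, STAR 2.7.8a, DESeq2 1.30.1 and cutadapt 3.7 are named, without roles, per the submitters' processing notes. Neither the annotation nor the strandedness is stated (not given in the sources used here). Estimated counts per gene, not normalized, were deposited by the authors (17.1% of values above 0 not whole in the first cohort, 20.4% at day 77). The authors deposited TPM for the same libraries. The authors also deposited, per the file headers, log2 fold changes with p-value and adjusted p-value columns.

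Symbols, gene types and exon overlaps came from GENCODE M21, which matched 50376 of 50600 identifiers. Counts were rounded and tested with edgeR 4.0.16 (TMM, default expression filter, robust quasi-likelihood) in R 4.3.3, adjusted over all genes tested. Knockout-against-WT and anti-p40 fits held their own groups; both doses shared a fit of 3 knockout groups. TPM were used for levels. SE is the log2 fold change divided by the root of the F statistic. Alternatives were DESeq2 1.42.0, limma 3.58.1 voom, RLE size factors, no filter, limma on log2(TPM + 1) and log2(TPM + 0.1), and leaving out each library. The fits were tested on simulated data.

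Members and gene lists were chosen with earlier results of these data known. Named were called genes with a mean of at least 1 TPM in either group (at most 14 per direction, by fold), the most abundant WT gene of each role, genes called in opposite directions by the 2 comparisons without shared libraries, the 2 lowest p-values per dose, and the top 3 of each other list per direction, of which 1 gene is not reported here. Replicates follow the deposited order.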

Additional observations from a re-analysis of the deposited data

Results flagged for a closer look

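In 99 groups of named genes and libraries, values were looked at for a library standing apart (gap to the nearest library over the range, at Dixon's 95% limit), which chance gives in about 1 in 20 groups. In vehicle-treated knockouts, replicate 3 was highest for Galnt17 (2.75 TPM; others 0 to 0.56), B4galt2 (6.27 TPM; others 0.53 to 3.54) and Chst15 (9.89 TPM; others 3.04 to 6.43). The smooth muscle markers of that library summed to 6399 TPM, the highest of its group. Replicate 7 was highest for St3gal1 (27.36 TPM; others 2.27 to 13.33) and St3gal4 (10.34 TPM; others 2.44 to 5.98), and replicate 2 for St8sia1 (3.73 TPM; others 0.37 to 2.11). In WT, replicate 8 was lowest for St3gal4 (1.32 TPM; others 2.27 to 3.11) and B4galt2 (2.06 TPM; others 4.28 to 5.69), replicate 5 highest for B4galnt4 (1.98 TPM; others 0.62 to 1.14) and replicate 7 highest for B3gnt7 (357.61 TPM; others 244.39 to 286.33).

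The effects of anti-p40 and of compound 13 at 30 mg/kg on St3gal3 differed by 1.16 on the log2 scale by a test of the difference itself (edgeR, adjusted p = 0.048), with St3gal3 higher than every vehicle library of its cohort in 5 of 5 anti-p40 libraries. That call was lost in 21 of 29 fits that left out 1 library, and without the filter on low counts. The treatments belonged to different cohorts, whose vehicle libraries had 12.2 to 30.3 TPM (day 77) and 35.9 to 76.9 TPM (first cohort). The part of this in the difference was not tested.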

How the results depend on the processing

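Among the genes named by rule, Gcnt3, which was not called, changed sign in the knockout comparison. It gave 0.13 on counts against -0.082 on log2(TPM + 1) and -0.085 on log2(TPM + 0.1). No called gene named by that rule changed direction under the alternatives run. Called genes outside the rule were not checked for this. Among them is B4galt5, called higher on counts with a mean TPM that was lower in knockouts. The median of the glycan genes tested turned from 0.03 to -0.02 with voom, -0.10 on log2(TPM + 1) and -0.14 on log2(TPM + 0.1). In vehicle-treated knockout against WT, 12 genes rather than 20 were higher on log2(TPM + 1) and 12 on log2(TPM + 0.1), where 66 genes were tested and the median of all genes lay at -0.17 and -0.19 on the log2 scale. For anti-p40, 11 rather than 7 were lower with DESeq2, and 4 on each TPM scale. For the difference between the anti-p40 and 30 mg/kg effects, 0 rather than 1 were higher without the filter, and 3 on each TPM scale. Leaving out 1 library gave 18 to 25 higher and 9 to 19 lower genes for the knockout, 4 to 8 higher and 5 to 9 lower for anti-p40, 0 to 2 higher and 0 lower for the difference, and 0 in either direction for both doses of compound 13. Among genes named for the knockout, St3gal1 was not called by voom or on either TPM scale, St3gal4 by voom, Fut8 on either TPM scale, and St8sia5 and the second St6galnac2 identifier without the filter. For anti-p40, Galnt12 was not called by voom, on either TPM scale or without the filter, B4galt1 on either TPM scale and St6galnac2 without the filter. The causes were not tested. At these depths, genes under about 1 TPM were measured with wide spread, and a difference there that was not called may have been missed. No paired analysis was possible because the labels number no replicates, and numbers given in deposited order pair no libraries.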
